A study of Apis mellifera with 12 samples.

Results

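In antennae of Apis mellifera workers (the honey bee), 26 genes listed under a LOC identifier had levels that went down in 2 steps, first from newly emerged workers to nurses and then from nurses to foragers and to defenders, the groups that work outside the hive. They were chosen from 12319 genes of the count table. A LOC identifier is the placeholder that NCBI gives to a gene without an assigned symbol, and 11185 LOC genes without a listed splice event could enter. Levels are given as CPM: counts rescaled so that each library sums to 1000000. A log2 level is the group mean of log2(CPM + 0.5). A gene was kept when its mean CPM in newly emerged workers was at least 5, its log2 level fell by 0.7 to under 3 from newly emerged workers to nurses, and its log2 level in nurses was at least 0.7 above that in foragers and in defenders. Of the 11185 genes, 7540 had the required level, 865 of these also had the first step, and 26 had the second step as well. The falls themselves therefore chose the genes and are given below as a description; edgeR calls on them are listed once, with nothing read from them.

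The libraries were made from antennal RNA, 3 each from newly emerged workers, nurses, foragers and defenders, all of them workers, and were sequenced on a DNBSEQ instrument. No treatment or genotype is given. The sources used here give no strain, age or colony, nor how many bees made up a library or how defenders were recognised, so task and age cannot be told apart. Nor do the labels say whether the libraries of a group came from separate bees or colonies, so p-values measure only the spread between these libraries.

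The antenna is the main organ of smell, taste and touch of the bee. Under its cuticle lie sensory neurons, support cells that secrete odorant binding proteins into the sensory hairs, epidermis that makes the cuticle, and small amounts of muscle, fat body and hemolymph cells. Adult workers usually pass from tasks inside the nest, such as brood care, to tasks outside it as they age, and the cuticle of a bee that has just left its cell is still being completed and tanned. The table of NCBI RefSeq genes used here, for the Amel_HAv3.1 assembly, contains all 26 genes and calls all of them protein coding; product names were not analysed here. No role is therefore given for them, and they are described by their values, by how they vary, and by the genes next to them.

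Library totals ran from 66708813 to 119703929 counts, and the lowest count of any member in any library was 48. The 7 listed markers of antennal sensory tissue, among them the odorant co-receptor gene Or2 and the odorant binding protein genes Obp1 and Obp2, had counts in every library. Together they summed to between 17848 and 21388 CPM in newly emerged workers and to between 33134 and 47060 CPM in the other groups. Obp1 and Obp2 made up most of these sums. In Obp1, Obp2, Obp5, Obp11, Or11 and Or12 every newly emerged library lay below every library of the other groups. Or2 did not follow them. It was at 311 to 344 CPM in newly emerged workers, 100.1 to 237 in nurses, 152 to 246 in foragers and 321 to 392 in defenders. The 7 muscle troponin genes summed to between 2675 and 3053 CPM in newly emerged workers, 1320 to 2040 in nurses, 1116 to 1451 in foragers and 1275 to 1698 in defenders, with no gene at 0. The 5 fat body markers (vitellogenin and the hexamerins) summed to between 35.6 and 50.4 CPM in newly emerged workers, 42.5 to 223 in nurses, 12.2 to 18.9 in foragers and 18.7 to 42.3 in defenders. They did not move together. In Hex70a and Hex110 every nurse library lay above every newly emerged library, and in HEX70b every nurse library lay below. The vitellogenin gene Vg, at 29.8 to 41.3 CPM in newly emerged workers and 25.5 to 137 in nurses, overlapped, as did the barely detected Hex70c. The 8 gland markers did not move together. In Mrjp1, Mrjp2, Mrjp3, Mrjp4, Mrjp5 and Mrjp7 every nurse library lay above every forager and defender library. Mrjp1 was at 131 to 1231 CPM in nurses and 0.860 to 41.7 in foragers. Hbg3 went the other way, with 96.9 to 130 CPM in nurses and 345 to 420 in foragers, and in Mrjp6 these groups overlapped. The 8 markers summed to 34.4 to 37.8 CPM in newly emerged workers, 389 to 2470 in nurses, 428 to 432 in foragers and 279 to 291 in defenders. Hbg3 made up most of the sums in foragers and defenders. The hemocyte marker PPO was at 22.0 to 24.7, 26.2 to 48.6, 9.24 to 9.99 and 10.3 to 12.2 CPM in the order newly emerged, nurse, forager and defender. The 4 opsin genes summed to 18.2 to 27.7, 15.7 to 61.7, 13.4 to 19.8 and 16.01 to 21.9 CPM. Among them, Blop was higher in every newly emerged library than in every other library. Lop1, Lop2 and Uvop overlapped between newly emerged workers and nurses. The troponin sum of every newly emerged library was thus above that of every other library, but the genes of the list differed. In TpnT, TpnI, TpnCIIa, TpnCIIb and TpnCIIIa every newly emerged library lay above every library of the other groups. TpnT was at 831 to 1002 CPM in newly emerged workers and 336 to 631 in nurses. TpnCIIIa was at 837 to 1057 CPM in newly emerged workers, 357 to 491 in nurses and 543 to 566 in foragers. TpnCI was at 199 to 222 CPM in newly emerged workers and at 170 to 293 in nurses. TpnCIIIb was at 3.33 to 4.81 CPM in all libraries. The part of these other tissues in the falls of the members was not tested, and in such bulk samples fewer cells of a type and less RNA per cell cannot be told apart.

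Together the 26 genes held 0.933% ± 0.0319 (SD, n = 3) of the counts of newly emerged workers, 0.212% ± 0.0216 in nurses, 0.0831% ± 0.00518 in foragers and 0.0818% ± 0.0115 in defenders. The first step had a median of 1.91 on the log2 scale and ran from 0.87 to 2.96, and the smaller of the second steps had a median of 0.95 and ran from 0.71 to 2.10. The first step was the larger one in 22 of the 26 genes. Every newly emerged library lay above every nurse library for all 26 genes, which among all genes tested held for 28.8%. Every nurse library lay above all forager and defender libraries for 23, against 4.93% of all genes tested. Since the rule chose for these differences, nothing is read from the counts.

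**Figure D1:**
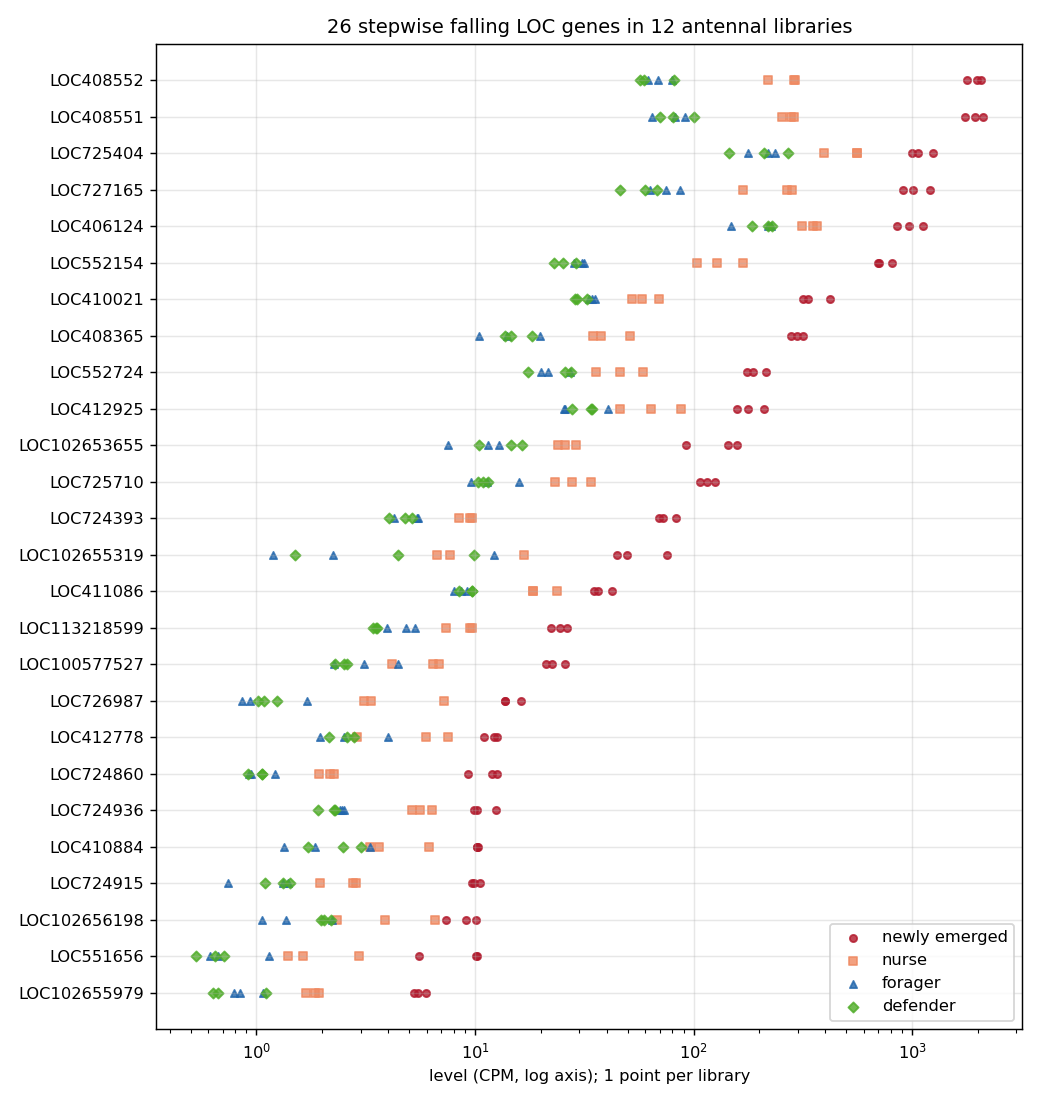
Level of each of the 26 members in each of the 12 libraries, in CPM on a log axis, 1 point per library; circles are newly emerged workers, squares nurses, triangles foragers and diamonds defenders. The newly emerged libraries lie to the right of the nurse libraries for all 26 genes, while forager and defender points overlap for most of them.

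**Figure D2:**
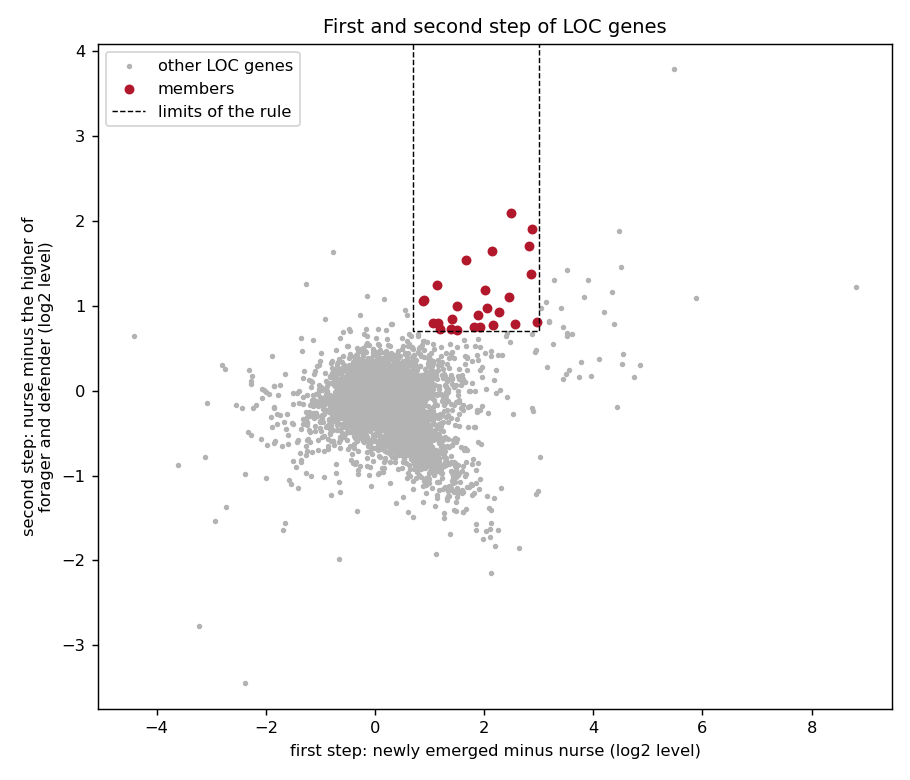
First step (newly emerged minus nurse) against second step (nurse minus the higher of forager and defender), both as differences of log2 levels, for the LOC genes with at least 5 CPM in newly emerged workers. The 26 members are red, the other genes grey, and dashed lines are the limits of the rule; the first step of the members runs from 0.87 to 2.96.

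LOC408552 and LOC408551, a pair of members that are direct neighbours in the gene order, fell steeply in both steps. LOC408552 was at 2072, 1984 and 1790 CPM in the newly emerged libraries, 219, 288 and 291 in nurses, 79.6, 69.0 and 62.0 in foragers and 81.1, 59.4 and 56.9 in defenders. Its mean was 7.33-fold higher in newly emerged workers than in nurses, 3.79-fold higher in nurses than in foragers and 4.04-fold higher in nurses than in defenders. LOC408551 was at 2112, 1932 and 1753 CPM in the newly emerged libraries, 253, 288 and 279 in nurses, 91.7, 82.5 and 64.2 in foragers and 101, 80.9 and 70.4 in defenders. For both genes all nurse libraries lay far below the newly emerged ones and above all forager and defender libraries, and foragers and defenders overlapped. The ratio of the counts of LOC408551 to those of LOC408552, not divided by length, was 0.974 to 1.02 in newly emerged workers, 0.961 to 1.16 in nurses, 1.04 to 1.20 in foragers and 1.24 to 1.36 in defenders. The ratio was thus higher in the defender libraries than in all others, a description chosen after the values were seen. Whether the pair share reads was not tested.

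LOC552154 had the largest second step of all members. It was at 806, 697 and 703 CPM in the newly emerged libraries, 103, 129 and 168 in nurses, 31.4, 28.3 and 30.9 in foragers and 28.8, 25.3 and 23.1 in defenders. The mean was 5.51-fold higher in newly emerged workers than in nurses, and 4.41-fold and 5.19-fold higher in nurses than in foragers and defenders. No libraries of different tasks overlapped except those of foragers and defenders. Over both steps LOC408552 had the largest fall, 4.79 on the log2 scale down to the higher outside group, and LOC102656198 the smallest, 1.86.

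The shape of the fall differed between members. LOC724393 had most of its fall in the first step, 2.96 on the log2 scale against 0.81 to foragers and 0.92 to defenders. Its mean was 8.16-fold higher in newly emerged workers than in nurses. It was 1.82-fold and 1.98-fold higher in nurses than in foragers and defenders. Its libraries were at 83.1, 72.7 and 69.6 CPM in the newly emerged libraries, 8.42, 9.51 and 9.69 in nurses, 4.25, 5.45 and 5.50 in foragers and 5.13, 4.06 and 4.79 in defenders. LOC410021 fell in a like way, from 356 ± 55.7 CPM to 59.9 ± 9.0 in nurses, 34.4 ± 1.14 in foragers and 30.1 ± 2.05 in defenders. In LOC725404, LOC411086, LOC724936 and LOC102656198 a second step was the larger one. LOC724936 was at 10.2, 9.89 and 12.5 CPM in the newly emerged libraries, 5.13, 6.35 and 5.58 in nurses, 2.52, 2.42 and 2.47 in foragers and 2.29, 1.92 and 2.25 in defenders. Its mean was 1.91-fold higher in newly emerged workers than in nurses and 2.64-fold higher in nurses than in defenders, and the forager libraries all lay above the defender libraries. LOC725404 went from 1100 ± 129 CPM to 504 ± 96.2 in nurses, 211 ± 30.4 in foragers and 208 ± 62.0 in defenders, and LOC411086 from 37.9 ± 3.80 to 20.1 ± 3.01, 8.60 ± 0.593 and 9.28 ± 0.693 CPM.

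The remaining members of more than 20 CPM in newly emerged workers are given as means ± SD of 3 libraries in the order newly emerged, nurse, forager and defender. LOC406124 was at 984 ± 135, 345 ± 27.5, 198 ± 43.5 and 211 ± 23.3 CPM, and its step to defenders, 0.71, was the smallest that met the rule. LOC408365 was at 298 ± 18.7, 41.1 ± 8.71, 14.8 ± 4.80 and 15.4 ± 2.37 CPM, and LOC552724 at 192 ± 19.2, 46.9 ± 11.6, 23.0 ± 3.79 and 23.6 ± 5.38 CPM. LOC412925 was at 182 ± 26.4, 66.0 ± 20.9, 30.7 ± 8.72 and 31.9 ± 3.63 CPM, and LOC102653655 at 131 ± 35, 26.3 ± 2.56, 10.6 ± 2.76 and 13.8 ± 3.03 CPM. In these 5 genes the forager and defender libraries overlapped. LOC100577527 went from 23.1 ± 2.51 CPM to 5.81 ± 1.45, 3.27 ± 1.09 and 2.47 ± 0.166 CPM, and here forager library 2, at 4.43 CPM, lay above nurse library 1, at 4.16.

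Members under 20 CPM in newly emerged workers kept only 0.628 to 2.82 CPM in the outside groups. LOC412778 was at 11.9 ± 0.872, 5.46 ± 2.37, 2.82 ± 1.06 and 2.50 ± 0.329 CPM, with nurse library 3, at 2.87 CPM, among the outside libraries. LOC410884 was at 10.2 ± 0.0281, 4.37 ± 1.54, 2.16 ± 1.02 and 2.40 ± 0.647 CPM, and LOC102656198 at 8.84 ± 1.40, 4.26 ± 2.15, 1.55 ± 0.601 and 2.06 ± 0.115 CPM. LOC724860 was at 11.3 ± 1.78, 2.12 ± 0.167, 1.03 ± 0.164 and 1.01 ± 0.0809 CPM. LOC724915 was at 10.0 ± 0.429, 2.52 ± 0.497, 1.15 ± 0.360 and 1.28 ± 0.169 CPM, and LOC102655979 at 5.56 ± 0.388, 1.82 ± 0.129, 0.901 ± 0.149 and 0.801 ± 0.259 CPM.

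At the lower limit of the first step, LOC724936 and LOC411086 lay just inside with 0.87 and 0.90 and LOC410227 and LOC552446 just outside with 0.59 and 0.55. At the upper limit, LOC724393 and LOC408552 lay inside with 2.96 and 2.88, and LOC725813 and LOC410368 outside with 3.04 and 3.14. At the limit of the second step, LOC406124 and LOC410884 lay inside with 0.71 and 0.73, and LOC725973 and LOC727110 outside with 0.68 and 0.67. For the level in newly emerged workers, LOC102655979 and LOC551656 lay inside with 5.56 and 8.64 CPM, and LOC100578730 and LOC113218555 outside with 3.48 and 1.92 CPM. Another 18 LOC genes met the level and the second step but fell by 3 or more in the first. The mirrored rule, a rise of the same size in both steps with the same floor in newly emerged workers, held for 12 LOC genes. For these genes the floor applied to their lowest group, but for members to their highest. The numbers of falling and rising genes are therefore not comparable.

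The difference between defenders and foragers was not itself a criterion, but the rule required a low level in both groups and so left out genes low in 1 of them. The shares of members are therefore given beside those of all genes with nothing read from the comparison. No member passed in edgeR's quasi-likelihood test with Benjamini-Hochberg adjustment, and neither did any of the 11271 genes tested (0%). At unadjusted p under 0.05 there was 1 member, lower in defenders, against 24% of all genes tested. DESeq2 called 1 of the 26 members and 11.6% of all genes. The count over all genes depended on the fit: with the replicate number as a block it was 667, and with forager and defender libraries alone it was 876. Without nurse library 3 it was 1161 and without nurse library 1 it was 491, and no member passed in any of these fits. The log2 fold change of the members, defender over forager, ran from -0.42 to 0.41 with a median of -0.05, against -0.02 over all genes tested. This median was -0.21 without defender library 1, 0.01 without forager library 2 and -0.16 with upper-quartile factors, so its sign is not settled. In 15 members it was below 0 and in 11 above, and in 20 members its size was under 0.25. Standard errors ran from 0.13 to 0.80 with a median of 0.21. Even a log2 fold change of -0.42 with a standard error of 0.14 did not pass (LOC113218599, edgeR adjusted p = 0.0951). With 3 libraries a group, differences well above 1 standard error could thus be missed.

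The gene nearest to a call was LOC113218599. It was at 3.94, 4.83 and 5.31 CPM in foragers and 3.41, 3.54 and 3.52 in defenders, after 22.4, 24.4 and 26.3 in newly emerged workers and 9.48, 7.34 and 9.73 in nurses. All defender libraries lay below all forager libraries. The log2 fold change was -0.42 (SE 0.14, edgeR adjusted p = 0.0951, and 0.0307 with DESeq2). Forager and defender libraries did not overlap for 3 members (LOC113218599, LOC410021 and LOC724936), all lower in defenders, against 31.8% of all genes tested in either direction. The members with the smallest p after LOC113218599 in each direction did not pass either. LOC727165 had a log2 fold change of -0.36 (SE 0.20, edgeR adjusted p = 0.288), LOC102653655 of 0.37 (SE 0.23, edgeR adjusted p = 0.347) and LOC102656198 of 0.41 (SE 0.35, edgeR adjusted p = 0.501).

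**Figure D3:**
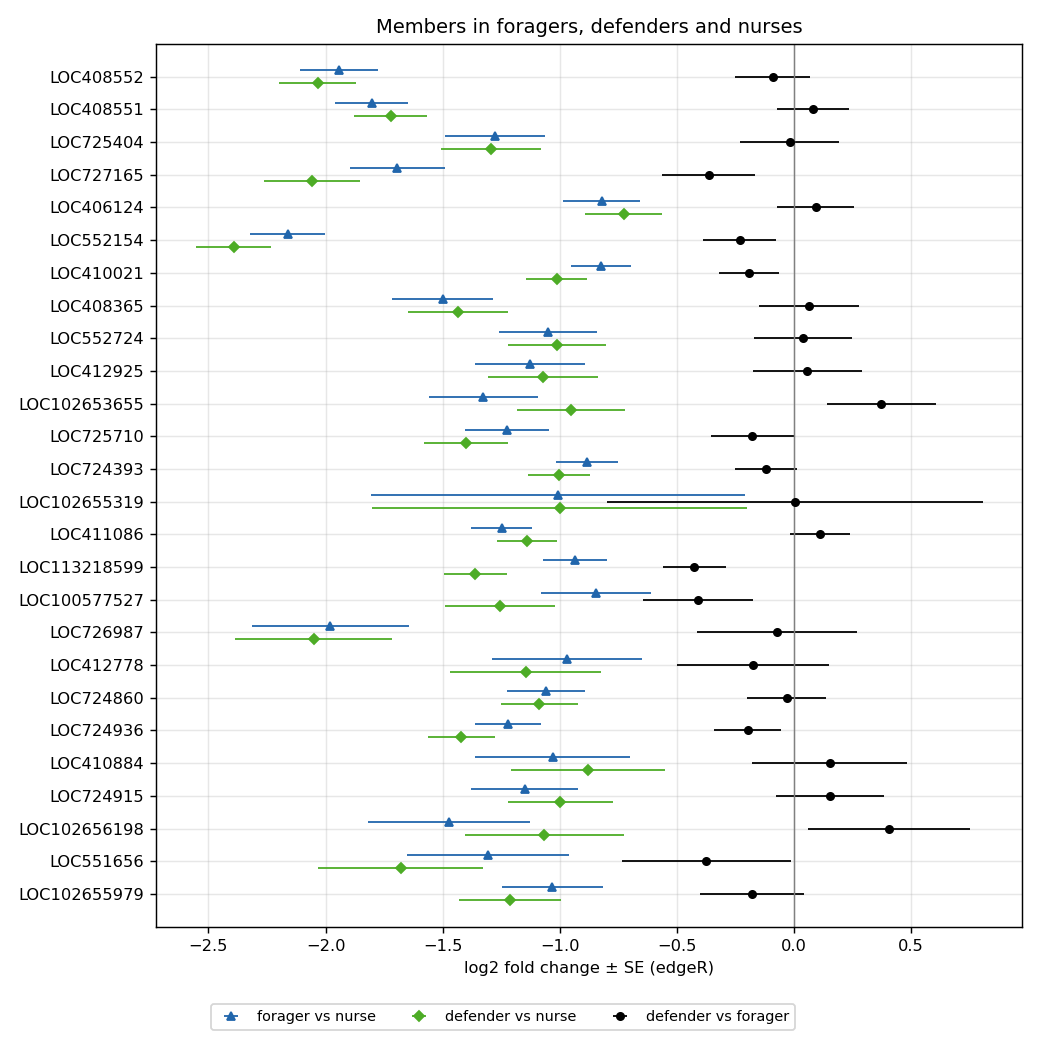
Log2 fold change with its standard error for each of the 26 members, forager over nurse (triangles), defender over nurse (diamonds) and defender over forager (circles), from edgeR. Both outside groups lie below nurses for all members, as the rule requires, and the defender over forager values run from -0.42 to 0.41.

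The rule fixed the direction of the remaining comparisons, so nothing is read from their counts. All 26 members passed as lower in nurses than in newly emerged workers (20.7% of all genes tested passed in that direction, 39.6% in either). In foragers against nurses 21 passed as lower (2.1% of all genes, 4.01% in either direction), and in defenders against nurses 22 (3.11% of all genes, 7.74% in either direction), with 20 in both; these comparisons share the nurse libraries. The 22 became 14 without defender library 2 or without defender library 3. Members that did not pass in foragers were LOC100577527, LOC102655319, LOC410884, LOC412778 and LOC551656. In defenders they were LOC102655319, LOC102656198, LOC410884 and LOC412778.

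Members had a larger median spread between libraries of a group than all 8682 genes that reached 5 CPM in some library. The median SD of the log2 level over 3 libraries was 0.28 for members in nurses and in foragers, against 0.15 over those genes in either group. In newly emerged workers it was 0.14 against 0.11, and in defenders 0.16 against 0.09. The members and the 8682 genes were not matched for level. Member means went down to 0.807 CPM in foragers and 0.628 CPM in defenders, and low counts vary more on the log2 scale. The part of level in the spread was not tested, so nothing is read from the difference. The median difference of the members from their group mean was 0.16 in nurse library 2, 0.17 in forager library 2 and 0.10 in defender library 1. Over the 8682 genes the medians in these libraries were -0.01, 0.01 and -0.02. LOC726987 is 1 example. It was at 3.11, 7.18 and 3.34 CPM in nurses and 0.858, 1.70 and 0.933 in foragers. In newly emerged workers it was at 13.7, 16.2 and 13.7 CPM and in defenders at 1.24, 1.02 and 1.08. Library 2 was thus above the others in nurses and foragers, with the nurse libraries still above all outside ones. Markers of fat body also differed between these libraries. They summed to 42.5, 223 and 120 CPM in nurse libraries 1, 2 and 3, to 18.9, 14.5 and 12.2 in foragers and to 42.3, 18.7 and 23.3 in defenders, so nurse library 2 and defender library 1 were highest and forager library 2 was not. The muscle genes summed to 1698 CPM in defender library 1 against 1384 and 1275 in the other defender libraries, to 1116 in forager library 2 against 1451 and 1317, and to 1685 in nurse library 2 against 1320 and 2040. The antennal genes summed to 47060 CPM in forager library 2 against 34830 and 34261. Their part in the levels of the members was not tested.

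**Figure D4:**
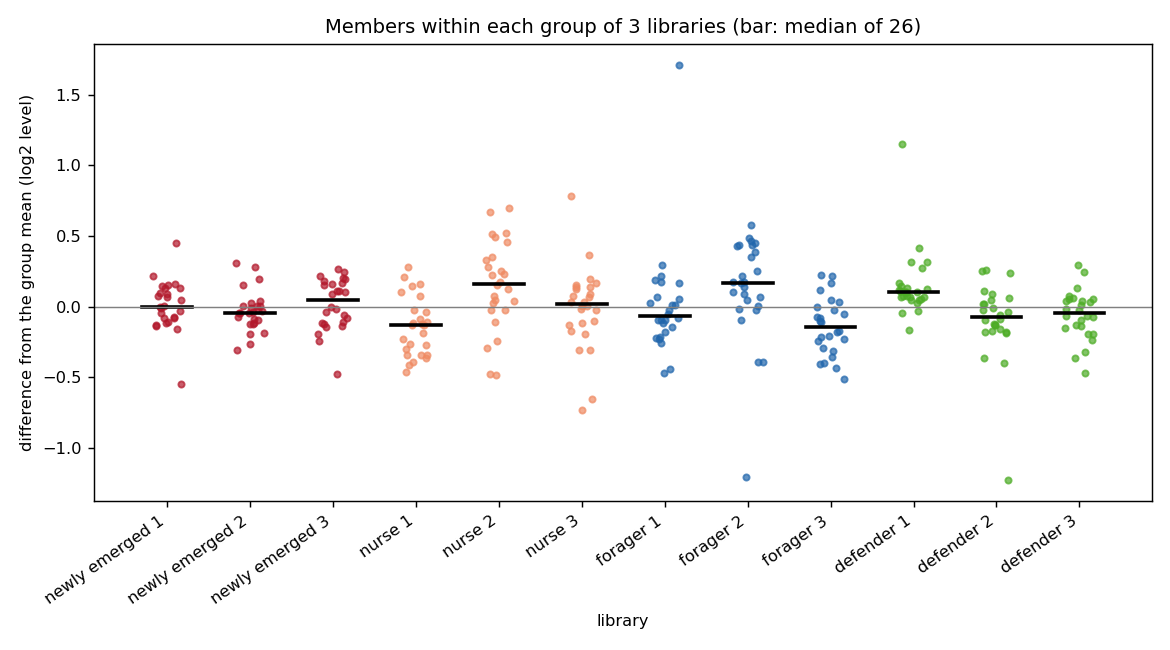
Difference of the log2 level of each member from the mean of its group, by library, with 1 point per member and a bar at the median of the 26. Nurse library 2, forager library 2 and defender library 1 have medians of 0.16, 0.17 and 0.10, and the point far above the others in forager library 1 and defender library 1 is LOC102655319.

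LOC102655319 stood out by its spread and did not fall stepwise in every library. It was at 75.4, 44.4 and 49.7 CPM in the newly emerged libraries, 7.68, 6.71 and 16.8 in nurses, 12.2, 1.19 and 2.24 in foragers and 9.89, 1.5 and 4.42 in defenders. Forager library 1 and defender library 1 lay above 2 of the 3 nurse libraries, and the other outside libraries below all of them. The gene next to it, LOC100578699, had the same libraries on top at a much lower level. It was at 0.987, 0.160 and 0.166 CPM in foragers and 1.03, 0.0919 and 0.170 in defenders, after 1.23, 0.839 and 0.747 in newly emerged workers and 0.139, 0.25 and 0.446 in nurses. Both genes were highest in library 1 of newly emerged workers, foragers and defenders and in library 3 of nurses. The other outside libraries of LOC100578699, at 0.0919 to 0.170 CPM, overlapped its nurse libraries. Its lowest count was 11, and whether the genes share reads was not tested.

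The nearest tested genes on each side were read off the RefSeq gene order and were not chosen by their levels. Apart from the adjacent members LOC408551 and LOC408552, the members had 50 such neighbours, of which 19 were lower in nurses than in newly emerged workers and 9 higher (edgeR, adjusted p under 0.05), against 20.7% and 18.9% of all genes tested. In foragers against nurses 4 of the 50 were lower and 0 higher by edgeR (2.1% and 1.91% of all genes tested). At unadjusted p under 0.05 there were 11 lower and 4 higher in foragers, and DESeq2 called 8 in either direction. In defenders against nurses 5 were lower and 1 higher (3.11% and 4.63% of all genes tested), and no neighbour passed between defenders and foragers in edgeR (11 at unadjusted p under 0.05, 4 with DESeq2). Of the 50 neighbours, 5 (10%) were lower in nurses and lower again in foragers or defenders, against 1.57% of all genes tested. These 5, singled out after their values were seen, were Apd-2, CPR11, CPR19, LOC100578586 and LOC100578730. With up to 2 genes on each side it was 8 of 100, among them LOC100576161, the second gene from LOC725710, which was lower in all 3 comparisons (log2 fold changes -4.24, -1.35 and -1.46, edgeR adjusted p = 7.34e-07, 0.0271 and 0.0217). Without 1 library at a time, 16 to 20 of the 50 were lower in nurses, 3 to 4 in foragers and 4 to 6 in defenders.

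Of the 50 neighbours 6 have a symbol, and of these Apd-2, CPR11 and CPR19, which encode proteins of the cuticle, are among the 5. The others, crh-BP, Hsp90 and C1q-VP, are not. The share of cuticle genes among all genes that fell in both steps was not determined, so nothing is read from this. The apidermin gene Apd-2 lies next to LOC727165; apidermins are small structural proteins of the cuticle. LOC727165 was at 1014, 912 and 1209 CPM in the newly emerged libraries, 283, 168 and 267 in nurses, 74.8, 86.4 and 63.2 in foragers and 60.2, 68.3 and 46.0 in defenders, with overlap between foragers and defenders alone. Apd-2 was at 3660, 3611 and 4549 CPM in the newly emerged libraries, 357, 246 and 387 in nurses, 48.8, 95.1 and 53.0 in foragers and 42.9, 80.3 and 50.9 in defenders. Both had a lower level in nurse library 2 than in the other nurse libraries and a higher one in forager library 2 and defender library 2 than in the others of those groups. Apd-2 fell by 3.54 on the log2 scale from newly emerged workers to nurses (SE 0.30, edgeR adjusted p = 4.98e-06), and by 2.35 and 2.53 from nurses to foragers and defenders (edgeR adjusted p = 0.00112 and 0.00110). One gene further lies Apd-1, another apidermin gene, which did not pass in the first step, with 27.2, 32.0 and 62.9 CPM before it (newly emerged workers) and 31.6, 56.5 and 26.6 after it (nurses; log2 fold change -0.05, edgeR adjusted p = 0.939). In foragers it was at 0.150, 0 and 0.102 CPM and in defenders at 0.150, 0.0167 and 0.0754 CPM, lower than in nurses in both (edgeR adjusted p = 6.64e-05 and 8.72e-05).

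CPR11 and CPR19 belong to the CPR family of structural cuticle proteins, which bind chitin through a conserved domain. CPR11 lies next to LOC725710, which was at 107, 115 and 125 CPM in the newly emerged libraries, 23.3, 34.1 and 27.8 in nurses, 11.4, 15.9 and 9.63 in foragers and 11.5, 10.8 and 10.4 in defenders. CPR11 was low throughout, with 2.69 ± 0.265 CPM in newly emerged workers, 0.715 ± 0.276 in nurses, 0.407 ± 0.0788 in foragers and 0.324 ± 0.0634 in defenders. It fell by 1.88 on the log2 scale in the first step (SE 0.29, edgeR adjusted p = 0.000381) and by 1.16 from nurses to defenders (SE 0.31, edgeR adjusted p = 0.0410), while its forager value, -0.83, did not pass (edgeR adjusted p = 0.170). The defender call was lost in 8 of the 12 fits that left out 1 library, at edgeR adjusted p = 0.0520 to 0.141.

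CPR19 is the nearest tested gene on one side of LOC551656. LOC551656 was at 5.57, 10.2 and 10.1 CPM in the newly emerged libraries, 1.39, 2.93 and 1.63 in nurses, 0.668, 1.14 and 0.614 in foragers and 0.713, 0.643 and 0.528 in defenders. Newly emerged library 1 was the low one of its group, and all nurse libraries lay above all outside libraries. CPR19 went from 281 ± 27.7 CPM in newly emerged workers to 8.71 ± 3.72 in nurses, 1.15 ± 0.562 in foragers and 1.16 ± 0.498 in defenders. It fell by 4.97 in the first step (SE 0.40, edgeR adjusted p = 2.92e-06), and by 2.96 and 2.91 to foragers and defenders (edgeR adjusted p = 0.00214 and 0.00345).

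The other neighbours that fell in both steps are listed under LOC identifiers. LOC100578730, next to LOC726987, met both steps of the rule but not its level, with 3.48 ± 0.668 CPM in newly emerged workers, 1.02 ± 0.0935 in nurses, 0.359 ± 0.0620 in foragers and 0.245 ± 0.0509 in defenders. It fell by 1.53 from nurses to foragers and by 2.06 to defenders (edgeR adjusted p = 0.00374 and 0.000966). LOC100578586, next to LOC113218599, went from 252 ± 24.1 CPM to 57.9 ± 13.4 in nurses, 33.0 ± 2.63 in foragers and 41.5 ± 8.55 in defenders. Its fall to foragers, 0.83 on the log2 scale, passed with all libraries (edgeR adjusted p = 0.0233) but not in 5 of the 12 fits that left out 1 library (edgeR adjusted p = 0.0530 to 0.0998). Its defender value over nurses, -0.50, did not pass (edgeR adjusted p = 0.0953, and 0.0342 with the replicate block). Neighbours also moved the other way: crh-BP, next to LOC724393, rose by 1.61 on the log2 scale from newly emerged workers to nurses (SE 0.33, edgeR adjusted p = 0.00273). The chaperone gene Hsp90, next to LOC406124, had a log2 fold change of 0.86 (edgeR adjusted p = 0.0406, 0.0592 with the replicate block, and 0.0907 to 0.151 when nurse library 1 or 2, or library 2 or 3 of newly emerged workers, was left out). C1q-VP, next to LOC102653655, had means of 59.2 ± 9.74 CPM before the first step and 46.0 ± 5.36 CPM in nurses (edgeR adjusted p = 0.108).

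**Figure D5:**
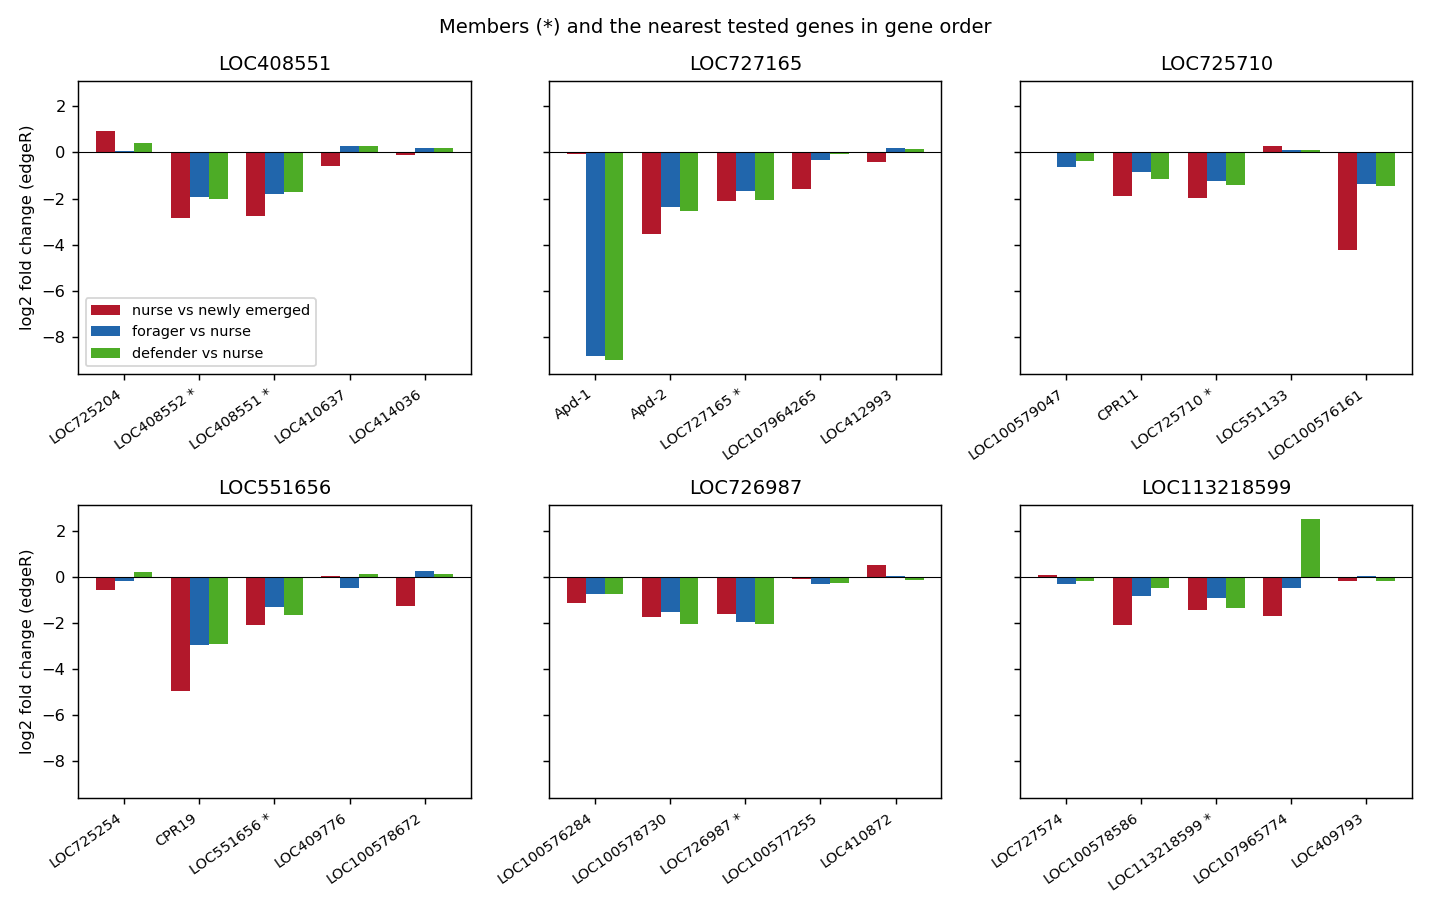
Log2 fold change, nurse over newly emerged (red), forager over nurse (blue) and defender over nurse (green), for 6 members (asterisk) and the 2 nearest tested genes on each side, in gene order, from edgeR. The 6 were picked after the values were seen. LOC408551 lies next to another member, and the other members shown have a nearest neighbour that passed in both steps. Only 5 of all 50 nearest neighbours were lower in nurses and lower again in foragers or defenders. The neighbours Apd-2, CPR11, CPR19, LOC100578730 and LOC100578586, and LOC100576161 at 2 genes' distance, have all 3 bars below 0. All passed in the first step and in foragers or defenders against nurses. CPR11 did not pass in foragers (edgeR adjusted p = 0.170), and LOC100578586 did not pass in defenders (edgeR adjusted p = 0.0953). The nearest genes on the other side of these members did not pass in both steps. The long bars of Apd-1 rest on counts near 0 in foragers and defenders.

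The bounds of LOC412925, LOC100577527, LOC724936 and LOC724915 overlap those of another tested gene, LOC100578696, LOC100577492, LOC725024 and LOC102654450 in that order. The sources used here do not name the strand setting, so reads of such overlapping genes cannot be told apart. The overlapping gene of LOC412925, LOC100578696, was lower in nurses by 1.41 on the log2 scale (SE 0.31, edgeR adjusted p = 0.00371) and had a value of 0.24 in foragers and 0.95 in defenders over nurses (edgeR adjusted p = 0.751 and 0.0730), where the member itself was lower. LOC725024, which overlaps LOC724936, was at -0.09 in nurses over newly emerged workers (edgeR adjusted p = 0.536).

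Genes with a symbol that met the same numeric limits give named genes with the same profile, again as a description. Of 289 such genes with at least 5 CPM in newly emerged workers, 6 met them. The chemosensory protein genes CSP2 and CSP4, which encode small soluble carrier proteins, were among them. CSP2 was at 76.8, 68.5 and 103 CPM in the newly emerged libraries, 28.5, 31.1 and 30.9 in nurses, 12.7, 10.8 and 9.65 in foragers and 13.9, 10.7 and 12.8 in defenders, with no overlap other than between foragers and defenders. Cpap3-b, which encodes a cuticle protein with chitin-binding domains, was at 71.5 ± 10.4, 22.8 ± 3.74, 10.9 ± 2.11 and 10.5 ± 3.11 CPM in the same order of groups. CSP4 was at 1164 ± 71.8, 595 ± 93.6, 369 ± 92.9 and 363 ± 32.6 CPM. The others were the troponin C gene TpnCIIb and the blue opsin gene Blop, which are also in the muscle and opsin lists above, and the glutathione S-transferase gene GstS4. They went from 9.98 ± 1.29, 7.53 ± 2.59 and 7.33 ± 0.855 CPM in newly emerged workers to 2.53 ± 0.648, 1.20 ± 0.169 and 0.779 ± 0.0304 CPM in defenders. Among LOC genes with a splice event, which the rule leaves out, LOC100576722 alone met the limits, with 92.9 ± 10.95, 14.9 ± 2.11, 7.87 ± 0.864 and 7.69 ± 0.409 CPM.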

How the data were processed

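The authors deposited raw counts per gene for 12 antennal libraries. They also deposited tables of splice events, whose values are an inclusion fraction for each library; only the gene names of those tables were used. Which aligner, counting program, genome build and strand setting were used is not stated for these libraries in the sources used here. The labels' protocols describe a chromatin assay on human cells and were not used. All 404 splice events with a matched gene lay within the gene's bounds in the RefSeq list of Amel_HAv3.1, and 12167 of 12319 gene names matched its symbols; it served for names, gene type and gene order only.

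Groups came from the sample titles, and replicate numbers from the number after the group's name, which in 2 titles differs from a second number there. After filterByExpr (11271 genes kept) and TMM scaling, 1 quasi-likelihood model with 4 group means was fitted to all 12 libraries in edgeR 4.0.16 under R 4.3.3 (robust glmQLFit, glmQLFTest), with Benjamini-Hochberg adjustment within each comparison at 0.05. A standard error is the size of the log2 fold change over the root of its F statistic. The fit was also run on simulated counts, for defenders against foragers alone. There all groups started from equal means, and the changes put in were larger than those of any member. Nothing about the members is read from it. DESeq2 1.42.0, other factors, no filter, a replicate block, and fits without each library were alternatives. Levels are CPM from column sums. Forager and defender libraries of the same number deviated together from their group means (correlations 0.423, 0.222 and 0.265 across genes), so the blocked count is given for that comparison. Newly emerged libraries also deviated together with forager and defender libraries of their number (correlations 0.18 to 0.34). Pairs with nurse libraries ran from -0.358 to 0.293. The main fit has no block for the number, and the labels do not say what it marks.

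The members and lists were chosen with earlier results of these data known. The rule for naming genes and the functional lists and promoter motifs relied on product names, proteins and sequences that were not analysed here, so those parts were not applied; all 26 members are named instead, neighbours and genes of like profile after their values were seen.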

Additional observations from a re-analysis of the deposited data

How the results depend on the processing

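The number of members was 56 with steps of 0.5 and 9 with steps of 1, and 17 with a floor of 20 CPM. It was 20 to 28 without each library in turn, the lowest without nurse library 2, where 18 of the 26 remained; 14 members met the rule in all 12 such runs. TMM library sizes gave 26 genes and upper-quartile library sizes 29. For defenders against foragers, DESeq2 called 1 member lower and 1306 genes in all; over all genes the call count was 0 to 1161 without 1 library, with 1161 without nurse library 3 and 491 without nurse library 1. It was 876 with forager and defender libraries alone, 742 with these and the replicate block and 667 with the replicate block in all libraries; no member passed in any of these edgeR fits. The cause was not tested. Members lower in defenders than in nurses numbered 14 to 23 without 1 library, with 14 without defender library 2 or 3, and those lower in foragers 16 to 24. Over 2 neighbours on each side in place of 1, which doubles the genes, 34 of 100 were lower in nurses and 10 in defenders. Upper-quartile factors moved the median of all genes by 0.12 (nurse over newly emerged) and -0.10 (defender over forager). Libraries of nurses and of the other groups with the same number did not deviate together in every pair (lowest correlation -0.358), and the replicate block left 26, 22 and 24 members called in nurses, foragers and defenders. Of the results for single named genes under these alternatives, 378 kept their state, called or not called. A call was lost in 18 and gained in 3, and none changed direction. The 378 include results that were not called with all libraries, such as LOC727165 between defenders and foragers. They are therefore not a count of calls that held. The test of promoter motifs was not run. Depth limits the least abundant members most, whose lowest count in a library was 48. The neighbour comparisons and the blocked fit of forager and defender libraries alone were chosen after seeing the data.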
